A study of Mus musculus with 2 samples.

Results

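The 37 genes described here encode the receptors for interleukins and interferons in the mouse, without the IL-2 receptor chains, and were taken as a named list from 21631 protein-coding genes on chromosomes 1 to 19 and X. All 37 were found in the RefSeq annotation of GRCm38.p6. Each gene was measured over a window made of its annotated body and 5 kb on either side, from 19582 bp for Il3ra to 158620 bp for Il1rap. The mark was H3K36me2, histone H3 dimethylated at lysine 36, in regulatory T (Treg) cells of the spleen, on the C57BL/6 background. Wild-type (WT) cells were set against cells with a Treg conditional knock out (KO) of Nsd2. There was 1 library of each genotype, so no difference has a replicate error and no p-value is given. The sources used here do not give the driver of the deletion, the antibody, or the age and number of the animals. The values are the base pairs and the number of deposited H3K36me2 regions inside each window.

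Most interleukin and interferon receptors are assembled at the cell surface from a chain that gives specificity for the ligand and a chain shared with other receptors. The chains of the gamma-chain, IL-6, IL-10 and interferon families signal through Janus kinases and STAT factors. IL-1 family receptors signal through the adaptor MyD88, and IL-17 receptors through the adaptor Act1. In Treg cells such receptors pass on signals for survival, for tissue residence and for resistance to or diversion by inflammatory cytokines. NSD2 is a histone methyltransferase that dimethylates H3K36, a mark laid down broadly over gene bodies and the space between genes.

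The wild-type library had 17158154 tags and the knockout library 14789700. A 500 bp peak needed 13 tags in the wild type and 12 in KO cells, for which exact Poisson 95% intervals are 6.92 to 22.2 and 6.20 to 21.0 tags, counting error only. A single 500 bp region present in one list and missing from the other is therefore not a resolved difference, and a window without a region may hold tags below the threshold. Of 6 Treg marker genes and 6 T cell marker genes, 5 each held a region in both libraries, and Ctla4 and Cd28 held none in either. Covered length over the Treg markers was 55634 bp in WT cells and 60281 bp in KO cells, and over the T cell markers 27960 bp and 31733 bp. It was 13107 bp and 7841 bp over 6 B cell markers (5 with a region in each library, Ms4a1 with none), and 9521 bp and 10785 bp over 6 myeloid markers (5 and 4 with a region, Cd14 with none). NK and CD8 markers had 4006 bp over 5 of 6 genes in WT cells and 9 bp over 1 gene in KO cells, with Ncr1 at 0 in both. ILC2 and mast cell markers had 3786 bp over 2 of 6 genes and 2937 bp over 3, with Gata2, Cpa3 and Fcer1a at 0. Summed cover was thus lower in the KO library over B cell, NK and CD8, and ILC2 and mast cell markers. It was higher over Treg, T cell and myeloid markers, with 1 library of each genotype. By gene, 5 B cell markers and 5 NK and CD8 markers were lower and none higher. Of the ILC2 and mast cell markers only 1 was lower, Kit with 3586 bp and 1654 bp, and 2 were higher. Of the myeloid markers 3 were lower and 2 higher, among them Spi1 with 3464 bp and 6708 bp. Treg markers had 1 lower and 4 higher, and T cell markers 5 higher and none lower. The NK and CD8 cover in WT cells lay in 7 regions, 5 of them of 500 bp and none over 802 bp. The part of these differences in the receptor values below was not tested. Fewer cells of a type and less of the mark per cell cannot be told apart in such libraries.

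Receptor genes were well covered in both genotypes. A region lay in 32 of the 37 windows in WT cells (86.5%, exact binomial 95% interval 71.2 to 95.5) and in 29 in KO cells (78.4%, 61.8 to 90.2). Over all coding genes the shares were 53.4% and 48.9%, and over the 12630 coding genes with bodies between 9582 bp and 148620 bp, the range of the receptor genes, 62.2% and 55.9%. Both libraries had a region in 28 windows (75.7%), against 40.7% of all coding genes and 47.6% in the length range. Il1rap, Il15ra, Il17rd and Il23r held one in WT cells alone (10.8%, against 12.6% and 14.7%), and Il20ra in KO cells alone (2.70%, against 8.15% and 8.35%). Il5ra, Il13ra1, Il12rb1 and Il22ra2 held none in either library (10.8%, against 38.5% and 29.4%). The intervals cover counting error only, and neighbouring receptor genes are not independent. Counting each base once, 33 separate stretches of 1737025 bp held 123 wild-type regions over 125782 bp and 101 knockout regions over 110010 bp. This was 7.24% of the span in WT cells and 6.33% in KO cells, against 2.52% and 1.92% around all coding genes and 3.35% and 2.69% around those in the length range.

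Covered length in KO cells was 87.5% of wild type over the receptor windows, 76.1% around all coding genes and 80.1% around genes in the length range. With the scores of 500 bp wild-type regions held to the KO tag threshold scaled for depth, the receptor value was 95.4%. When the knockout values were divided by the ratio of total covered length of the libraries, the receptor value became 117.5%. The knockout list covered 74.4% of the wild-type length in total, so this division raises the knockout value of every gene by the same factor. Neither alternative was computed for the other coding genes, so 95.4% and 117.5% have no background and are not comparable with 76.1% and 80.1%. By gene, 23 of the 33 windows with a region were less covered in KO cells (69.7%, against 58.6% of all such coding genes and 60.4% in the length range) and 10 were more covered (30.3%, against 37.1% and 35.3%). After that division the majority turned, with 14 less and 19 more covered in KO cells, and the median difference went from -500 bp to 137 bp. These counts too were not made for the other coding genes. The counts of direction by family given below are without that division. The median difference over the 37 windows was -0.66 percentage points of the window and the mean -0.85. Over all coding genes these were 0 and -0.35, and in the length range 0 and -0.53. Windows without a region in either library enter as 0, and they are 10.8% of the receptor genes, 38.5% of all coding genes and 29.4% in the length range. Among windows with at least 2000 bp of regions in a library, 3 of 20 had 2-fold or more less cover in KO cells (15.0%, 3.21 to 37.9), where 29.2% of all coding genes did. None of the 20 had 2-fold or more additional cover, where 9.38% of all coding genes did, with 500 bp taken as the lowest length in either fold. The 20 windows are 54.1% of the receptor genes, against 23.6% of all coding genes and 27.5% in the length range. The intervals of both receptor shares hold the shares in the length range, 28.7% and 8.31%.

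**Figure D1:**
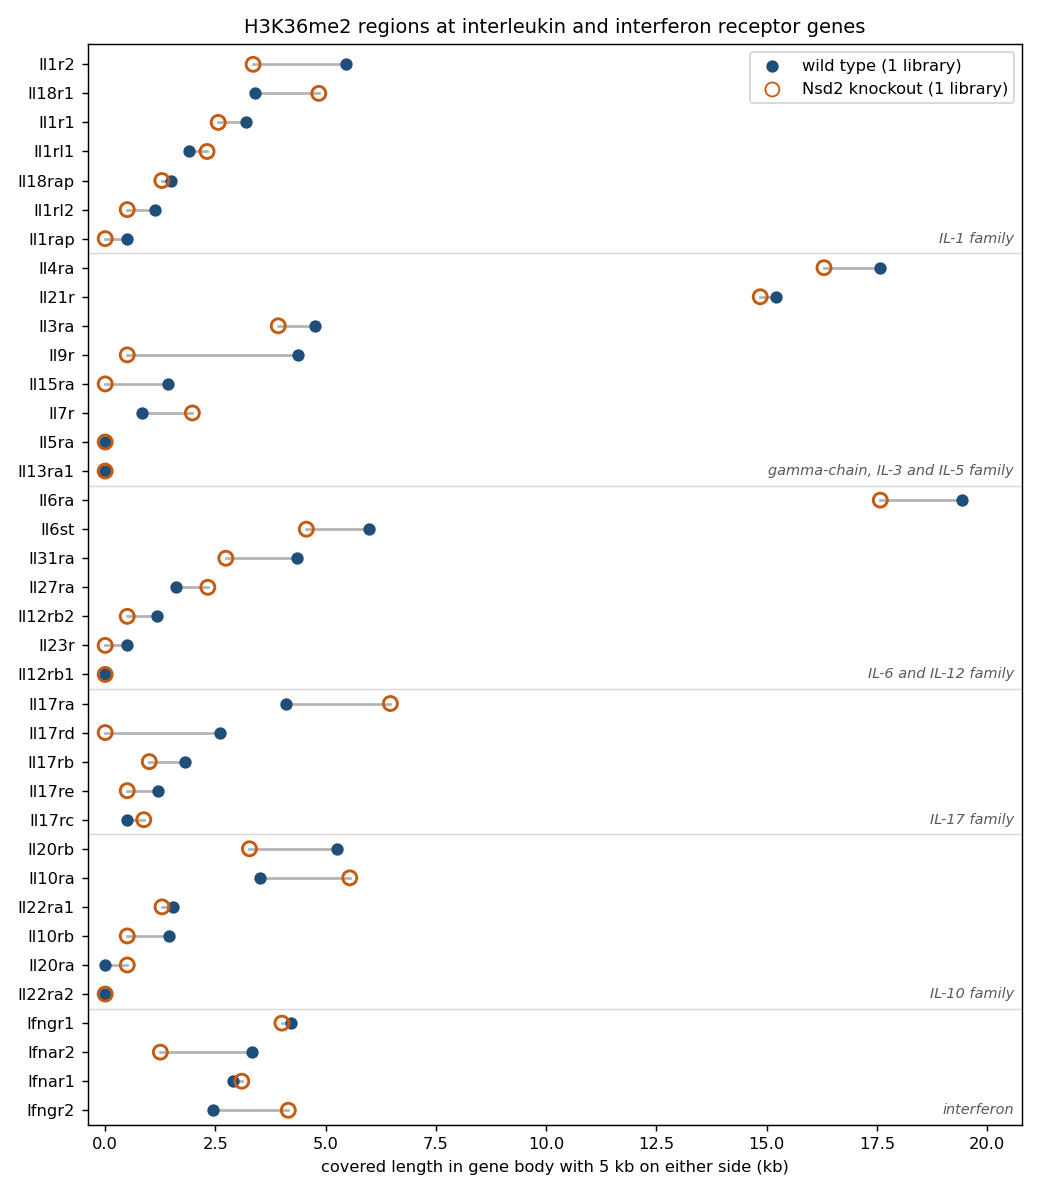
Covered length of H3K36me2 regions (kb, horizontal axis) in the window of each of the 37 receptor genes, grouped by receptor family, with filled points for the wild-type library and open circles for the Nsd2 knockout library, 1 library each. Il6ra, Il4ra and Il21r lie apart at 14.9 to 19.4 kb in both libraries. With lengths under 500 bp taken as 500 bp, the widest gaps between libraries in proportion are at Il9r and Il17rd.

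**Figure D2:**
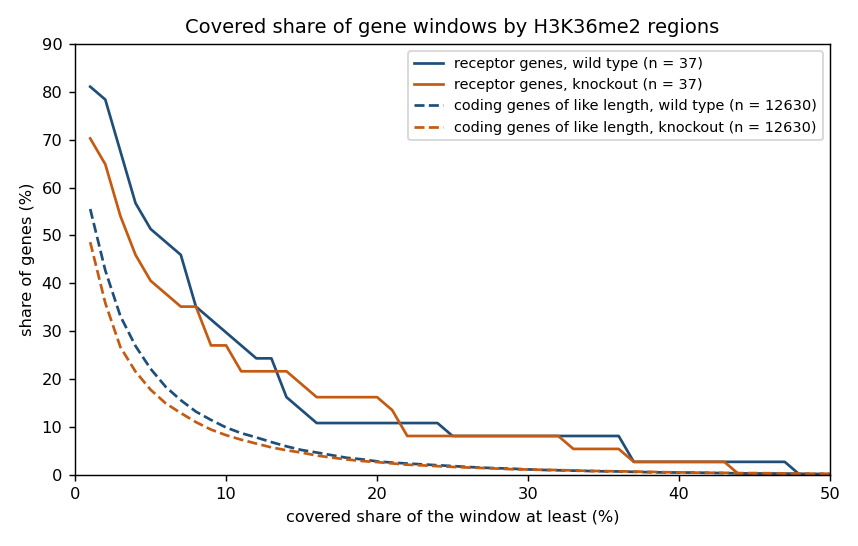
Share of genes (vertical axis, %) whose window is covered to at least the share on the horizontal axis (%), for the 37 receptor genes (solid) and the 12630 coding genes of like length (dashed), wild type in blue and knockout in orange. At 10% cover the receptor curves stand at 29.7% and 27.0% and the other curves at 9.88% and 8.27%.

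Cover was concentrated in 3 genes. Il6ra, Il4ra and Il21r together held 52195 bp in WT cells and 48730 bp in KO cells, 41.5% and 44.3% of all covered receptor base pairs. Without them, the other 34 windows were covered to 4.59% in WT cells and 3.82% in KO cells, still above the 3.35% and 2.69% of genes in the length range, and the knockout had 83.3% of the wild-type length. Direction per gene depended on the measure. Across 8 alternative ways of counting, 17 of the 33 genes with a difference changed sign at least once, and 6 kept their sign in all 8. These were Il1r2, Il9r, Il31ra and Ifnar2, with less cover in KO cells, and Il17ra and Il18r1, with more.

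The gamma-chain, IL-3 and IL-5 family had the largest covered share of the receptor families, 14.0% of its span in WT cells and 11.9% in KO cells, and this rested on Il4ra and Il21r. Without that pair the other 6 genes were covered to 4.78% and 2.69%. By the median gene the family stood at 9.69% in WT cells and 3.83% in KO cells, and the interferon family at 8.63% and 11.4%. Of its 8 genes, 5 were less covered in KO cells, 1 more, and 2 held no region. Il4ra, the signalling chain of the IL-4 and IL-13 receptors, lies at chr7:125552271-125579474 and had 17559 bp in 6 wild-type regions and 16300 bp in 6 knockout regions. Its covered share of 47.2% in WT cells and 43.8% in KO cells was higher than that of 99.66% and 99.47% of coding-gene windows. Il21r, the IL-21 receptor, is the next coding gene downstream, at chr7:125603252-125634397. It had 15203 bp in 10 wild-type regions and 14854 bp in 4 knockout regions, so nearly the same length was spread over fewer, longer regions in KO cells. The libraries shared 14185 bp at Il4ra, 80.8% of the wild-type and 87.0% of the knockout length, and 10511 bp at Il21r, 69.1% and 70.8%. Signs at these genes were not stable: normalised tags inside the window were higher in KO cells at both, as were lengths in the higher-scoring 50% of regions and after dividing by the libraries' ratio.

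The longest regions of the receptor set were also at this locus. From 25.4 kb to 34.5 kb past the start of Il4ra, over the last part of its body and beyond, wild type had a region of 9134 bp with 168.4 normalised tags. In the knockout a region of 13010 bp with 288.4 normalised tags took in all of it. By length these ranked 39 among 54422 wild-type and 12 among 39645 knockout regions on the chromosomes used. The 23777 bp between the genes, with no coding gene annotated there, were covered to 70.2% in WT cells and 64.9% in KO cells, more densely than either gene body. Knockout regions of 7647 bp, from -2073 bp to 5574 bp relative to the Il21r start, and of 7807 bp, over its end, each spanned places that wild type held as separate regions. The 7807 bp region ran past the Il21r window and also overlaps Gtf3c1. The Il21r promoter lay inside a region in both libraries. Its sequence is shown because the 7647 bp knockout region and a 2498 bp wild-type region both pass over it, at chr7:125603179-125603428 on the plus strand, the 250 bases before the RefSeq transcript start. Capitals mark each CG dinucleotide and, as a run of 6 near the end, a Runx-like match.
Il21r: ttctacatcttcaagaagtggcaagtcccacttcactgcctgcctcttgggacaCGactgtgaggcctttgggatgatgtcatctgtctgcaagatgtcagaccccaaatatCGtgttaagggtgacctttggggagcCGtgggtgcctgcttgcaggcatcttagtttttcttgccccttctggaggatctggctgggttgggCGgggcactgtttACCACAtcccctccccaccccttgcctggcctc

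**Figure D3:**
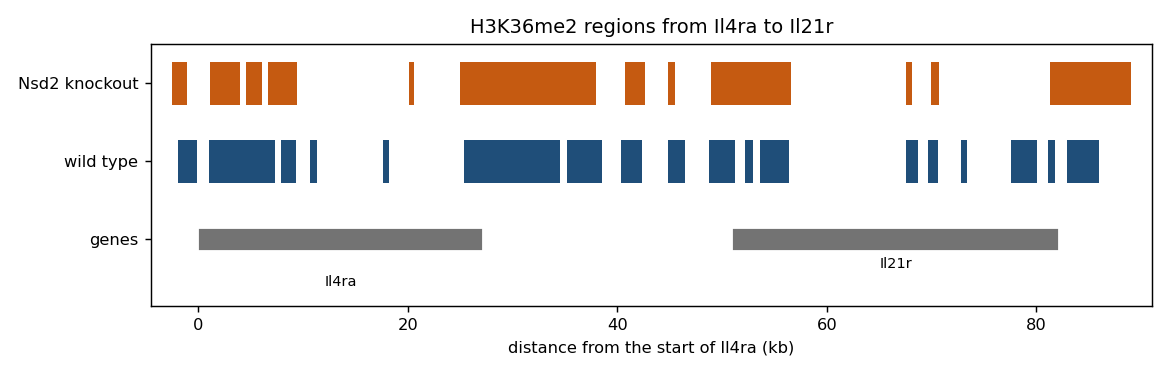
H3K36me2 regions from 5 kb before Il4ra to 5 kb after Il21r, drawn against distance from the Il4ra start (kb, horizontal axis), with gene bodies in grey, wild-type regions in blue and knockout regions in orange, 1 library each. Knockout regions are longer at the end of Il4ra (13010 bp against 9134 bp) and across the start of Il21r, while the middle of Il4ra holds little in either library.

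Il9r, the IL-9 receptor chain, had the largest drop in proportion among the windows with regions in both libraries. At chr11:32187544-32205283 it held 4364 bp in 4 wild-type regions of 500 to 2574 bp, and 500 bp in 1 knockout region, an 8.73-fold lower covered length. The knockout region lay wholly inside the longest wild-type region, and the wild-type regions at the gene boundary and at the promoter had no counterpart. The region at the boundary also overlaps Snrnp25. Il9r passed the 2-fold rule under all 8 alternatives, with differences of -2574 to -5157 bp. Il15ra, the IL-15 receptor alpha chain, had 1415 bp in 3 wild-type regions and none in KO cells. Il7r, the IL-7 receptor chain that supports T cell survival, had 838 bp in 1 wild-type region and 1976 bp in 3 knockout regions. A region of 838 bp in WT cells and of 500 bp in KO cells lay past the Il7r start, and the additional knockout regions, of 976 bp and 500 bp, lay over and before it. In the gene body alone Il7r had less cover in KO cells, by 79 bp. The difference at Il7r was 0 with regions of at least 1 kb and in the higher-scoring 50% of regions. Il3ra, the IL-3 receptor alpha chain, had 4748 bp and 3924 bp, in 3 regions each, in its short window of 19582 bp. Il5ra, the IL-5 receptor alpha chain, and Il13ra1, a chain of the IL-13 receptor, held none in either library.

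Il7r and Il9r gave opposite pictures at the promoter, and their sequences are shown for that reason. The 300-base RefSeq promoter window of Il7r lay wholly inside a knockout region and touched none in WT cells, whereas that of Il9r lay wholly inside a wild-type region of 650 bp and touched none in KO cells. The bases before the transcript start are at chr15:9529877-9530126 for Il7r and chr11:32200280-32200529 for Il9r, both on the minus strand. In Il7r the capitals mark the only CG and a GAS-like match, TTCAGGGAA, that begins 142 bases before the start. In Il9r they mark 5 CG dinucleotides and a Runx-like match, TGTGGT.
Il7r: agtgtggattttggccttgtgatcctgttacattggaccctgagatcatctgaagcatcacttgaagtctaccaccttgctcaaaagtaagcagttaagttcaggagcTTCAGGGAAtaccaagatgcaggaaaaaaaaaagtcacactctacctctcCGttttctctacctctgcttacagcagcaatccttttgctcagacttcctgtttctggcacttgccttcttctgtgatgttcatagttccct
Il9r: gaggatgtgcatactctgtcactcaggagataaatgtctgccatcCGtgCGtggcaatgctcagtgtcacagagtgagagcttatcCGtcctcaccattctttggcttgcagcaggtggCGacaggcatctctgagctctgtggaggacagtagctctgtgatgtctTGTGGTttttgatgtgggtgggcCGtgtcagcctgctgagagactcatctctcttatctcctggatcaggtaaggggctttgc

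Il6ra led the IL-6 and IL-12 family. This gene encodes the IL-6-binding receptor chain and had more covered base pairs than any other receptor gene in both libraries. At chr3:89869324-89913196 its window held 19433 bp in 16 wild-type regions and 17576 bp in 16 knockout regions, 36.1% and 32.6% of the window. No region was longer than 3019 bp, so the cover was broken up along the whole gene, unlike the long regions at Il4ra. Only 9280 bp were shared, 47.8% of the wild-type and 52.8% of the knockout length. Il6st, which encodes the signalling chain gp130 shared by IL-6 family receptors, had 5991 bp in 6 regions and 4561 bp in 5. Its promoter lay inside a region in both libraries, and so did part of that of Il6ra. Il31ra, the IL-31 receptor chain and neighbour of Il6st, had 4346 bp in 7 regions and 2736 bp in 5. Il27ra, a chain of the IL-27 receptor, had 1607 bp and 2327 bp, most of it at the boundary with Rln3, and its sign turned to -480 bp in the higher-scoring 50% of regions. Receptors of the inflammatory cytokines IL-12 and IL-23 held little. Il12rb2 had 1173 bp and 500 bp with no shared base, Il23r 500 bp and none, and Il12rb1 none in either library. Over the family, 5 of 7 genes were less covered in KO cells and 1 more, with 8.22% and 6.89% of the span covered.

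**Figure D4:**
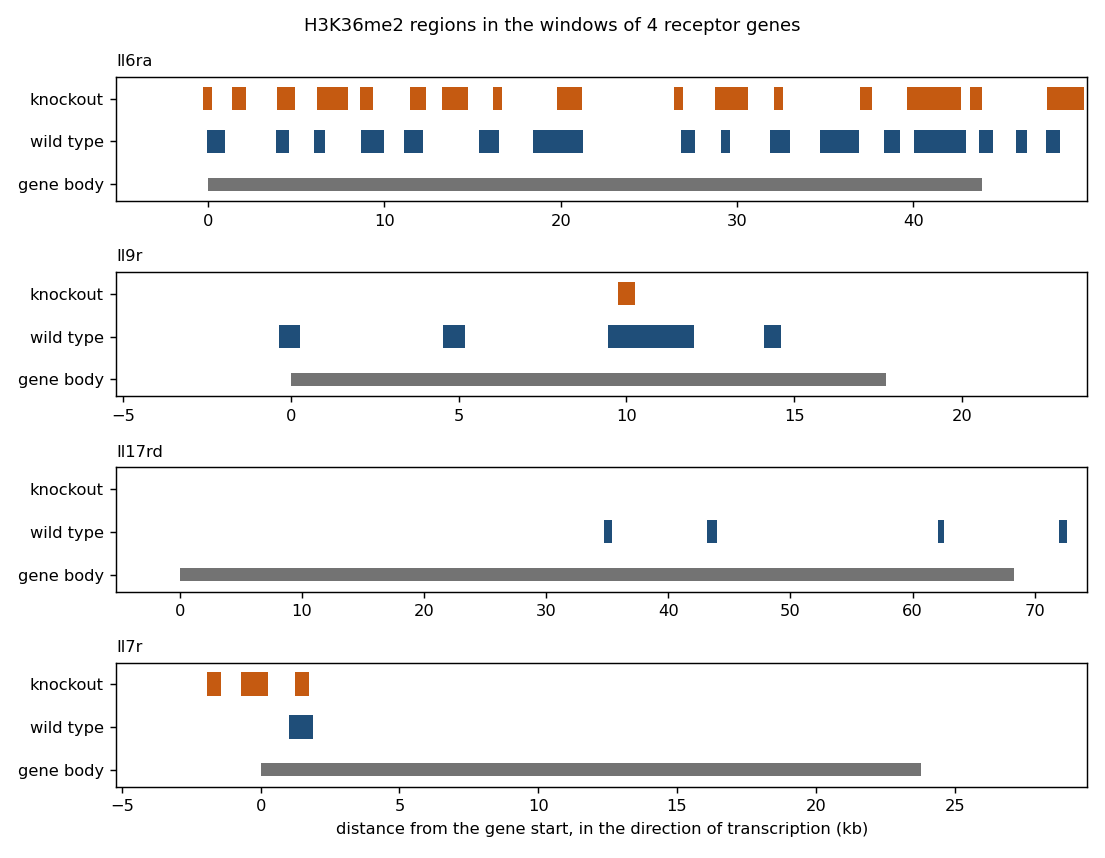
H3K36me2 regions in the windows of Il6ra, Il9r, Il17rd and Il7r against distance from the gene start in the direction of transcription (kb, horizontal axis of each panel), with the gene body in grey, wild-type regions in blue and knockout regions in orange. Il6ra holds 16 regions in each library, Il9r 4 and 1, Il17rd 4 and none, and Il7r 1 and 3.

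The IL-1 family had the smallest covered share, 3.04% in WT cells and 2.53% in KO cells, close to the 3.35% and 2.69% of genes in the length range. Of 7 genes 5 were less and 2 more covered in KO cells. Il1r2, the decoy receptor for IL-1, had 5471 bp in 7 regions and 3354 bp in 4, with 1265 bp shared. Il1r1, the signalling IL-1 receptor, had 3191 bp in 5 regions and 2563 bp in 4, all inside its body. The sign at Il1r1 turned in the higher-scoring 50% of regions and after dividing by the libraries' ratio. Il18r1, the IL-18 receptor chain, had 3395 bp in 5 regions and 4844 bp in 6. Its longest region, of 1395 bp in WT cells and 1810 bp in KO cells, lay at the gene's start. Il1rl1 encodes ST2, the IL-33 receptor of tissue Treg cells, and ends just before Il18r1 begins, so this region fell in its window too. The body of Il1rl1 itself held 500 bp in each library, at places that did not overlap. Il18rap, the IL-18 receptor accessory chain, had 1500 bp and 1285 bp without a shared base, Il1rl2, the IL-36 receptor, 1128 bp and 500 bp, and Il1rap, the shared accessory chain, 500 bp in its 148620 bp body in WT cells and none in KO cells.

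The Il18r1 start is shown because it is the receptor promoter with 2 GAS-like matches (TTCNNNGAA, a palindrome bound by activated STAT dimers) and lay inside a region in both libraries. RefSeq gives Il18r1 3 transcript starts, and the sequence is that before the most downstream of them, at chr1:40465756-40466005 on the plus strand. The capital runs of 9 are the matches TTCTGGGAA and TTCCCAGAA, beginning 219 and 152 bases before the start, and the other capitals are CG dinucleotides.
Il18r1: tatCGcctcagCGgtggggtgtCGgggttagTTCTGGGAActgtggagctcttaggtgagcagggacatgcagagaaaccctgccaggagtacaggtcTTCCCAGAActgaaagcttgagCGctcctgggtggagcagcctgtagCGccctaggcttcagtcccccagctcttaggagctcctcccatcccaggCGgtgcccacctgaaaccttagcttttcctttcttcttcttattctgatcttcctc

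In the IL-17 family, 3 of 5 genes were less covered in KO cells and 2 more, with 5.86% and 5.18% of the span inside regions. Il17ra, the chain common to the IL-17 receptors, had 4099 bp in 4 regions and 6467 bp in 6. All of a wild-type region of 1963 bp in its body lay inside a knockout region of 3324 bp. The difference at Il17ra was between 1157 and 5705 bp toward the knockout in the alternatives counted in base pairs. Il17rd, also known as Sef, had 2613 bp in 4 wild-type regions of 500 to 848 bp and none in KO cells. With the body alone it fell below the 2000 bp minimum, and without regions under 1 kb it held none in either library. Il17rb, the IL-25 receptor, had 1808 bp and 1000 bp with no shared base. Il17re, the IL-17C receptor chain, had 1205 bp and 500 bp, and Il17rc, which pairs with Il17ra, 500 bp and 875 bp, and these neighbours share regions.

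The IL-10 family was covered to 5.54% in WT cells and 5.24% in KO cells, with 3 of 6 genes less and 2 more covered in KO cells. Il10ra, the IL-10-binding chain, had 3510 bp in 4 regions and 5546 bp in 5. Most of that difference lay outside the gene, since its body held 1658 bp and 1616 bp and the flanks 1852 bp and 3930 bp. Flank regions on the side of BC049352 overlap that gene, and those on the other side, of 500 bp in WT cells and 1473 bp in KO cells, overlap no other coding gene. Il20rb, a chain of the IL-20 receptors, had 5264 bp and 3271 bp in 4 regions each, and its sign turned when regions less than 2 kb apart were merged. Il10rb, the chain shared by IL-10 and IL-22 receptors, had 1445 bp in 1 region of its body in WT cells and 500 bp, in the flank, in KO cells. Il22ra1, the IL-22 receptor, had 1536 bp and 1289 bp. Il20ra, which pairs with Il20rb, had none and 500 bp. Il22ra2, which encodes the soluble IL-22 binding protein, had none in either library.

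All 4 interferon receptor genes held regions in both libraries, over 9.65% of their span in WT cells and 9.37% in KO cells. Ifngr1, the interferon gamma-binding chain, had 4205 bp in 3 regions and 4007 bp in 5, with 3007 bp shared. Each of its wild-type regions, at the start and in the first part of the body, had a knockout region inside it. Ifngr2, the second chain of that receptor, had 2441 bp in 4 regions and 4152 bp in 3, and the knockout region at its start was 2350 bp long where wild type had 941 bp upstream. Its sign turned, to -139 bp, in the higher-scoring 50% of regions. Ifnar1, a chain of the type I interferon receptor, had 2909 bp and 3097 bp in 4 regions each. Ifnar2, its partner chain, had 3330 bp in 4 regions and 1251 bp in 2, a 2.66-fold lower covered length. Of the wild-type length at Ifnar2, 1445 bp lay in the neighbouring body of Il10rb. In the Ifnar2 body alone the values were 1476 bp and 1251 bp, and the gene also missed the 2-fold rule under 4 other alternatives.

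The interferon receptors showed 3 patterns at the promoter, and their sequences are set side by side for that reason. The promoter windows of Ifngr1 and Ifnar1 lay wholly inside a region in both libraries, that of Ifnar2 in WT cells alone and that of Ifngr2 in KO cells alone. The Ifngr2 region had a deposited score of 12.0, at the knockout tag threshold of 12. The Ifnar2 region had one of 14.5, with a wild-type threshold of 13, so neither absence from the other list is a resolved difference. The bases before the start are at chr10:19591699-19591948 for Ifngr1, chr16:91484965-91485214 for Ifnar1, chr16:91372533-91372782 for Ifnar2 and chr16:91546809-91547058 for Ifngr2, all on the plus strand. Capitals mark CG dinucleotides, 11 in Ifngr1, 19 in Ifnar1, 11 in Ifnar2 and 25 in Ifngr2. In Ifnar2 the run of 9 capitals, TTCCTGGAA, is a GAS-like match.
Ifngr1: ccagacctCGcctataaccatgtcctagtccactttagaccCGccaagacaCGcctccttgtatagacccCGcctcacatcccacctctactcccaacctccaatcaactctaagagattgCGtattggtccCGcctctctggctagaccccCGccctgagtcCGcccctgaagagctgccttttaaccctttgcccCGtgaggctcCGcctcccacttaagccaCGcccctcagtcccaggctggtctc
Ifnar1: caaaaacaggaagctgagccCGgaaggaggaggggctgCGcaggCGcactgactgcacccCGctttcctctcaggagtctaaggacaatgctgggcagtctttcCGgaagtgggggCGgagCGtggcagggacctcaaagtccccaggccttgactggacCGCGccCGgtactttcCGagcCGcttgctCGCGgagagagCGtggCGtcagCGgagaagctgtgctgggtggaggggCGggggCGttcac
Ifnar2: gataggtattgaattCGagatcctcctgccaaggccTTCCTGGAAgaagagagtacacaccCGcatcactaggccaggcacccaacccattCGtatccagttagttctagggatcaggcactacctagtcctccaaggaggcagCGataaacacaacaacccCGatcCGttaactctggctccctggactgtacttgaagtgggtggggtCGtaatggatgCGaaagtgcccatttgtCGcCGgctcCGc
Ifngr2: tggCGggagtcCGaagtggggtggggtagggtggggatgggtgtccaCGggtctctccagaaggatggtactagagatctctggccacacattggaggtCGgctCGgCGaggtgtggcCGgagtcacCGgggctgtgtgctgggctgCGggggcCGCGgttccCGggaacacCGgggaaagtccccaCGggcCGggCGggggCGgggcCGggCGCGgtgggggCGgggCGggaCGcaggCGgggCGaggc

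Ifnar2, Il10rb, Ifnar1 and Ifngr2 lie together within 201225 bp of chromosome 16, at chr16:91367783-91569007 with their flanks. This stretch held 34706 bp in 26 wild-type regions and 30508 bp in 25 knockout regions, 17.2% and 15.2% of its length. More of it lay between genes than within them. The 59197 bp between Il10rb and Ifnar1, with no coding gene annotated there, held 21987 bp in 12 regions and 19100 bp in 14. The longest regions of that gap were 5047 bp in WT cells and 4803 bp in KO cells, and they began 72.1 kb and 72.2 kb past the Ifnar2 start.

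**Figure D5:**
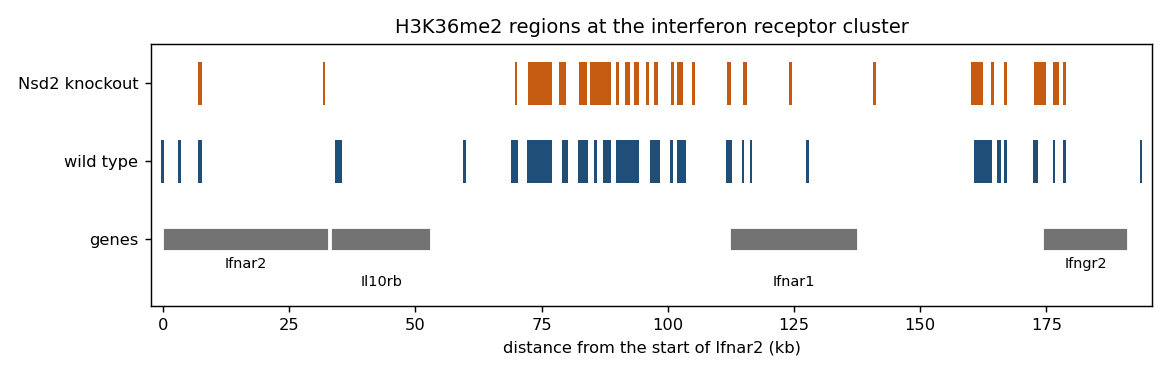
H3K36me2 regions across the interferon receptor cluster against distance from the Ifnar2 start (kb, horizontal axis), with gene bodies in grey, wild-type regions in blue and knockout regions in orange. Regions crowd into the space between Il10rb and Ifnar1 in both libraries, covering 37.1% of it in WT cells and 32.3% in KO cells.

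Along the receptor genes, cover was densest just past the start, and the same profile was not computed for other genes. RefSeq promoter windows, which also give the strand, were given for 31 of the 37 genes, all but Il10ra, Il10rb, Il12rb1, Il17ra, Il22ra2 and Il27ra. The first 5 kb of these 31 bodies were covered to 18.6% in WT cells and 17.0% in KO cells, with a region in 16 and 13 genes. The rest of the body was covered to 5.36% and 3.93%, the 5 kb before the start to 7.09% and 6.05%, and the 5 kb after the end held 17202 bp and 17021 bp of 155000 bp. The start here is the outermost RefSeq boundary of the gene. A promoter window of 300 bases touched a wild-type region in 11 of 31 genes (35.5%, 19.2 to 54.6) and a knockout region in 9 (29.0%, 14.2 to 48.0), against 11.5% and 11.4% of all coding genes and 13.7% and 13.5% in the length range. It touched a region in both in 6 (19.4%, 7.45 to 37.5), against 5.83% and 7.01%. These 6 were Ifngr1, Ifnar1, Il18r1, Il21r, Il6ra and Il6st. In WT cells alone the genes were Ifnar2, Il4ra, Il9r, Il15ra and Il17re, and in KO cells alone Ifngr2, Il3ra and Il7r.

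Motifs were searched on both strands in the 250 bases before 36 transcript starts of the receptor genes and 21045 of all coding genes. TTCNNNGAA was found in 6 of 36 (16.7%) and in 6.64% of all. The interferon-stimulated element (GAAA, any 2 bases, GAAA) was found in 0 of 36 and in 2.98% of all, and the Runx-like TGTGGT in 4 of 36 (11.1%) and 12.2%. The median number of CG dinucleotides was 7 for receptor starts and 10 for all. Matches of these patterns may overlap, and transcript starts of a gene share bases.

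Over all lengths, a larger share of receptor regions than of the whole lists coincided between libraries, but this did not hold in every class of length. Mean length of the receptor regions was 1058 bp in WT cells and 1175 bp in KO cells, against 780 bp and 796 bp for the whole lists. Of the 123 wild-type regions, 64 shared a base with a knockout region (52.0%, 42.8 to 61.1), against 29.8% of all wild-type regions, and of the 101 knockout regions 62 did in the other direction (61.4%, 51.2 to 70.9), against 41.0%. Among regions of 500 bp the shares were 26.1% (14.3 to 41.1) and 42.4% (25.5 to 60.8), and these intervals hold the 16.1% and 25.7% of the whole lists. Between 1 and 2 kb, 20 of 23 wild-type regions were shared (87.0%, against 62.1%) and 13 of 17 knockout regions (76.5%, against 75.7%). At 2 kb and over, 12 of 14 wild-type regions were shared (85.7%, against 91.8%) and 10 of 10 knockout regions (against 96.9%). In base pairs, 62803 bp were common, 49.9% of the wild-type and 57.1% of the knockout length. Within regions the normalised tags per kb were 16.7 in WT cells and 17.8 in KO cells, where the whole libraries had 16.0 and 17.3.

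The other genes of these pathways were taken by role. Of 30 ligand genes 11 held a region in WT cells and 10 in KO cells, against 53.4% and 48.9% of all coding genes. None of the 30 reached 2000 bp in either library, against 23.6% of all coding genes. Ligand genes are short, with a median body of 5745.5 bp against 28814 bp for the receptors, so these shares are not of genes of like length. Il27, encoding a subunit of IL-27, had 1000 bp and 1711 bp, Il4 1551 bp and none, and Ifng, interferon gamma, 1467 bp and none. Among 23 signalling partners 22 held a region in WT cells and 21 in KO cells, over 8.39% and 8.60% of the span. Covered length in KO cells was 102.5% of wild type for the partners, 87.5% for the receptors and 79.1% for the ligands. Of the partners 7 were less and 14 more covered in KO cells, where 58.6% and 37.1% of all coding genes with a region were. Stat5b, a factor activated by gamma-chain cytokines, had 19458 bp and 23205 bp, the Janus kinase gene Jak1 15437 bp and 15531 bp, and Irak2, a kinase of IL-1 receptor signalling, 14875 bp and 11005 bp. The 2-fold rule was passed by 1 partner toward less and 2 toward more cover in KO cells, of 15 with at least 2000 bp, against 29.2% and 9.38% of all coding genes. These were Irak4, with 2330 bp and 1000 bp, Jak3, with 1125 bp and 4364 bp, and Sigirr, with 1861 bp and 4050 bp, named after their values were seen.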

How the data were processed

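H3K36me2 regions of 1 wild-type and 1 knockout library were called by the authors with HOMER findPeaks in histone style on each library alone, without a control, per the file headers. The caller joined neighbouring 500 bp peaks, with a minimum distance of 1000 bp, into regions. The submitters' processing notes also name Trim Galore, Bowtie2, Picard and deepTools, and the mm10 build. The deposited signal of a region is its tag count scaled by the authors to 10000000 tags, so a change of the mark across the whole genome cannot be read from it. The deposited score was used to rank regions within a list. In the alternative that applied the KO tag threshold to 500 bp wild-type regions, it was also a cutoff. Such regions were kept at a score of at least 13.9, that threshold scaled to the wild-type depth.

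Covered length (end minus start of each region, cut at the window) was computed in Python 3.11.15 with numpy 2.4.6, pandas 2.3.3 and scipy 1.17.1, over RefSeq GRCm38.p6 gene bodies with 5 kb on either side. The 2-fold rule is one of size and not a test: at least 2000 bp in a library and a 2-fold difference, with lengths under 500 bp set to 500 bp. Regions shared a base at 1 bp. Shares have exact Clopper-Pearson 95% intervals. No molecular identifiers are named in the labels, so tags may not be independent molecules and intervals cover counting error only. The rule for named genes took windows of at least 2000 bp, genes past the 2-fold rule, genes with a region at the promoter and the 3 most covered genes of other lists. Values of the remaining receptor genes are also given, so that all 37 are accounted for. Coordinates of regions are as deposited. Promoters are from RefSeq GRCm38.p6. The members, gene lists, rule and alternatives were chosen with earlier results of these data known. A copy of the wild-type list, with regions removed from randomly picked windows holding at least 2000 bp, served to check the code. Those windows had to come out as 2-fold lower, so the check does not bear on how well the rule performs.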

Additional observations from a re-analysis of the deposited data

How the results depend on the processing

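With 1 library per genotype no replicate could be left out. No paired analysis was possible because each genotype has a single library. The limit that depth sets was not tested, and 46 of 123 wild-type and 33 of 101 knockout regions had the shortest length of 500 bp. The knockout value lay between 80.4% and 96.0% of wild type under 7 alternatives. In 1 of these it was a ratio of normalised tags (93.6%), and in the others of covered length. Covered length was 117.5% when divided by the ratio of the libraries' total covered length. Windows with 2-fold less cover in KO cells were 3 of 20 and became 1 of 15 in gene bodies alone (Il9r). They were 2 to 4 under the other alternatives, with 12 to 23 windows tested. Windows with 2-fold more cover were 0 of 20. They became 1 of 15 in gene bodies alone, 1 of 12 with regions of at least 1 kb and 1 of 13 in the higher-scoring 50% of regions. They became 2 of 20 when the KO tag threshold, scaled for depth, was applied to the scores of 500 bp WT regions. With regions less than 2 kb apart merged they were 3 of 23, and after dividing 4 of 21. With regions of at least 1 kb, 19 of 37 windows held a wild-type and 14 a knockout region. The share of wild-type regions overlapping the knockout was 40.7% when 50% of a region had to be shared and 42.5% in the higher-scoring 50%, and the share of knockout regions was 49.5% when 50% had to be shared. Under these alternatives the same counts and shares were not computed for all coding genes or the whole lists. They therefore show only how the receptor values move with the setting. The causes were not tested, beyond fewer regions entering under the stricter settings.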

Other observations

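Beyond the gene windows, 2 long gaps between receptor genes differed in cover, and both were singled out after their values were seen. The 97249 bp between Il1r2 and Il1r1 on chromosome 1 held 2129 bp in 4 wild-type regions, none over 629 bp, and no knockout region. The 76991 bp between Il22ra2 and Il20ra on chromosome 10 held 3821 bp in 5 wild-type regions, the longest of 1672 bp, and 500 bp in 1 knockout region. The 36535 bp between Ifnar1 and Ifngr2, in contrast, had 4 WT regions over 5771 bp and 5 KO regions over 5944 bp. No coding gene is annotated in these gaps. The whole stretch from Il1r2 to Il18rap with its flanks, 477016 bp, had 29 WT regions over 19245 bp and 19 KO regions over 13687 bp.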
